A study of Rattus norvegicus with 12 samples.

Results

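The Z-disc strain sensors are 9 genes whose proteins sit where cardiac muscle carries load. They are Ankrd1, Ankrd2, Xirp1, Xirp2, Csrp3, Nrap, Fhl1, Fhl2 and Flnc, chosen by gene symbol and not by any measured value, and each symbol matched 1 of the 34700 genes in the table. Their mRNA was measured in the left ventricle of male Sprague-Dawley rats that were 8 weeks old at surgery, with 3 rats in each of 4 groups. In the Sham group a thread was passed around the left anterior descending coronary artery and not tied. In the HF group the artery was tied, which gave an infarct and heart failure, and the rats were sedentary. HFE rats had the same ligation and then treadmill running, in 5 weekly sessions of 60 min. BAIBA rats had the ligation and received β-aminoisobutyric acid, a small molecule released by working muscle, by gavage at 75 mg/kg each day. That is the account in the methods and the label of these rats is HF+BAIBA, whereas another passage of the study has Sham and HF rats receive BAIBA. Both treatments began 4 weeks after surgery and lasted 8 weeks, and hearts were taken 12 weeks after surgery. Rats had been divided by ejection fraction before treatment. The methods describe a running study and a BAIBA study, each with its own Sham and HF rats (gavaged with water in the BAIBA study), and do not say which of these the Sham and HF libraries came from. Tissue was cut from the front wall of the left ventricle. For BAIBA, and in another passage for HF too, the border of the infarct is named, so sampled site and treatment cannot be told apart.

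The Z-disc anchors the thin filaments and titin of neighbouring sarcomeres, and the intercalated disc joins the last Z-disc of a cell to the next cell. Proteins bound at both places feel stretch and tension, and some of them also travel to the nucleus and change transcription. Ankyrin-repeat proteins (Ankrd1 and Ankrd2) bind the elastic part of titin. Xin-repeat proteins (Xirp1 and Xirp2) bind actin at the intercalated disc. The LIM-domain proteins (Csrp3, Fhl1, Fhl2 and N-RAP, the product of Nrap) act as adaptors between titin, actin, α-actinin and signalling enzymes, and filamin C (Flnc) crosslinks actin and unfolds under tension. In the heart, genes of this group are known as markers of hypertrophy and overload, and mutations in several of them cause cardiomyopathy.

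Between 14812541 and 19732588 reads per rat were counted on genes. Replicates of a group correlated with r between 0.947 and 0.978 on the log2 scale, and every pair differed by more than sampling noise. Levels below are CPM, the reads of a gene relative to all counted reads of the library, with TMM scaling over the 12 rats, unless FPKM is named. The tissue label was checked by markers. The 8 cardiomyocyte markers were expressed in every rat, with sums between 36515 and 38533 CPM in HF, 36537 and 42086 in HFE, 36024 and 43556 in BAIBA and 43339 and 45205 in Sham. Most of the gap between Sham and HF lay in 1 marker, Myh6, at 18690 CPM on average in Sham, 12217 in HF and 11194 in HFE, and the median marker differed by -0.03 on the log2 scale between HF and Sham. The 7 scar markers, which follow collagen-producing tissue, summed to 758 to 909 CPM in Sham, 529 to 691 in HF, 535 to 705 in HFE and 529 to 1344 in BAIBA. In this sum every HF and every HFE rat lay below every Sham rat, and BAIBA overlapped with Sham. At an unadjusted edgeR p under 0.05, 3 of 7 scar markers were lower in HF than in Sham and 3 of 7 in HFE. DESeq2 without a fold limit passed 1 of 7 as lower in each of these comparisons. BAIBA rat 1 had the highest sums of scar markers and of macrophage markers (150 CPM, against 46.8 to 129 in the other groups). Atrial markers summed to between 12.4 CPM in a BAIBA rat and 540 CPM in an HF rat, where Nppa alone was at 511 CPM. The atrial markers Myl7, Myl4 and Sln instead averaged highest in Sham. Myl7 was at 26.4 CPM in Sham, 7.63 in HF, 11.4 in HFE and 0.453 in BAIBA. Myl4 was at 13.8, 3.33, 4.89 and 1.46 CPM in the same order. Myl7 differed by -5.82 on the log2 scale between BAIBA and Sham (edgeR adjusted p = 0.0695, DESeq2 adjusted p = 1.47e-28). Skeletal muscle markers stayed between 8.55 and 21.4 CPM in sum, with Myh2, Tnni2, Actn3 and Ryr1 under 5 CPM in every rat. With edgeR, 0 fibroblast, smooth muscle, endothelial, macrophage or erythroid markers were called in any comparison at an adjusted p under 0.05 and a change over 1 on the log2 scale. Without the fold limit, DESeq2 gave an adjusted p under 0.05 to 1 erythroid marker in each of HFE against Sham (Hbb), BAIBA against Sham (Hbb) and BAIBA against HFE (Hba-a1), and to 2 macrophage markers in BAIBA against HFE (Cd163 and Mrc1).

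Levels per length covered more than 4 orders of magnitude across the 9 genes. Ankrd1 was the most abundant of them, with FPKM between 1891 and 3167 (median 2873), and ranked 24 of 34700 genes by mean FPKM. Fhl2 came next at 767 to 1345 FPKM (rank 52). Csrp3 followed at 209 to 484 FPKM, its highest rat below the lowest rat of Fhl2. Nrap lay at 98.4 to 179 FPKM and overlapped with Fhl1 at 56.9 to 121 FPKM. Xirp2 at 26.8 to 58.3, Flnc at 28.2 to 60.3 and Xirp1 at 26.9 to 40.0 FPKM overlapped one another and were not ordered beyond their spread. Ankrd2, which is known from skeletal muscle, was close to silent at 0.0408 to 0.708 FPKM, that is 1 to 16 reads per rat, alongside low skeletal muscle markers. Together the 9 genes took between 0.624% and 0.954% of all counts of a rat.

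**Figure D1:**
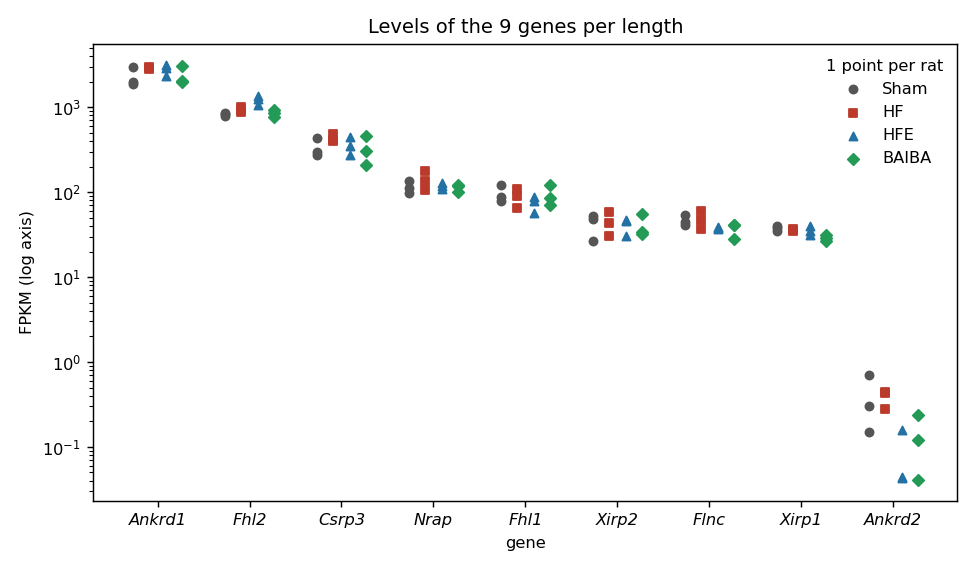
FPKM of the 9 genes in each of the 12 rats on a log axis, with 1 point per rat and the group shown by colour and shape. Ankrd1 leads with 1891 to 3167 FPKM, and Ankrd2 lies below 1 FPKM in every rat.

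Compared group with group and gene by gene, no strain sensor passed the study's threshold for differential expression. That threshold was an adjusted p under 0.05 with a change over 1 on the log2 scale. edgeR's quasi-likelihood test called 0 of 9 genes for HF against Sham, where it called 0% of all 14957 genes tested, 0 of 8 for HFE against Sham (0% of all genes), 0 of 8 for BAIBA against Sham (0.0402%), 0 of 8 for HFE against HF (0%), 0 of 8 for BAIBA against HF (0%) and 0 of 8 for BAIBA against HFE (0.0808%). The mean of the 3 ligated groups against Sham also gave 0 of 9 (0%). Ankrd2 was too low to be tested in 5 of the 6 pairs of groups, which leaves 8 genes there. At an unadjusted p under 0.05 the counts were 0 of 9 (all genes 6%), 2 of 8 (11.2%), 1 of 8 (7.41%), 1 of 8 (7.62%), 1 of 8 (5.55%), 2 of 8 (9.57%) and 1 of 9 (6.35%) in the same order, and every one of these belonged to Fhl2, Xirp1 or Flnc. In BAIBA against HFE, deviations of same-numbered rats correlated, although the labels give replicate numbers only and state no pairing. There the fit with the number as a block put Ankrd1 under this limit as well (unadjusted p = 0.0185, adjusted p = 0.290, edgeR). The test of any difference among the 4 groups gave 0 of 9 at an adjusted p under 0.05 (all genes 0%) and 3 of 9 at an unadjusted p under 0.05 (9.71%), namely Fhl2, Xirp1 and Ankrd2. Apart from Ankrd2, the largest fitted change was 0.62 on the log2 scale, that of Fhl2 in HFE against Sham.

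By direction, the genes under an unadjusted p of 0.05 split, higher and lower, into 2.47% and 3.53% of all genes in HF against Sham, 6.04% and 5.15% in HFE against Sham, 4.13% and 3.28% in BAIBA against Sham, 4.34% and 3.29% in HFE against HF, 2.81% and 2.73% in BAIBA against HF and 4.68% and 4.88% in BAIBA against HFE. Rats of 2 groups that did not overlap were counted in the same way. In HF against Sham 0 genes stood apart (all genes 5.47% higher and 6.27% lower), in HFE against Sham Fhl2 was higher and Flnc lower (9.48% and 8.36%), and in BAIBA against Sham Xirp1 and Flnc were lower (6.59% and 6.09%). Fhl2 was higher and Ankrd2 lower in HFE against HF (8.11% and 6.23%), Xirp1 and Ankrd2 were lower in BAIBA against HF (6% and 5.46%), and Fhl2 was lower in BAIBA against HFE (7.34% and 8.24%).

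DESeq2, the tool named in the study's methods, called Fhl2 at an adjusted p under 0.05 with no limit on the fold change in HFE against Sham (all genes 1.11%), in BAIBA against HFE (2.03%) and across the 4 groups (1.97%). DESeq2 called 0 of these genes in HF against Sham (0.334%) and BAIBA against Sham (0.659%), and also 0 in HFE against HF (0.324%) and BAIBA against HF (0.222%). With the fold limit it called none in any pair. Without a filter on low counts, edgeR called Fhl2 at an adjusted p under 0.05 in HFE against Sham (all genes 0.313%) and BAIBA against HFE (0.214%), and 0 members in HFE against HF (0.00855%) and BAIBA against HF (0.00844%). All 6 pairs reuse the same 4 groups, so they are not independent of one another.

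**Figure D2:**
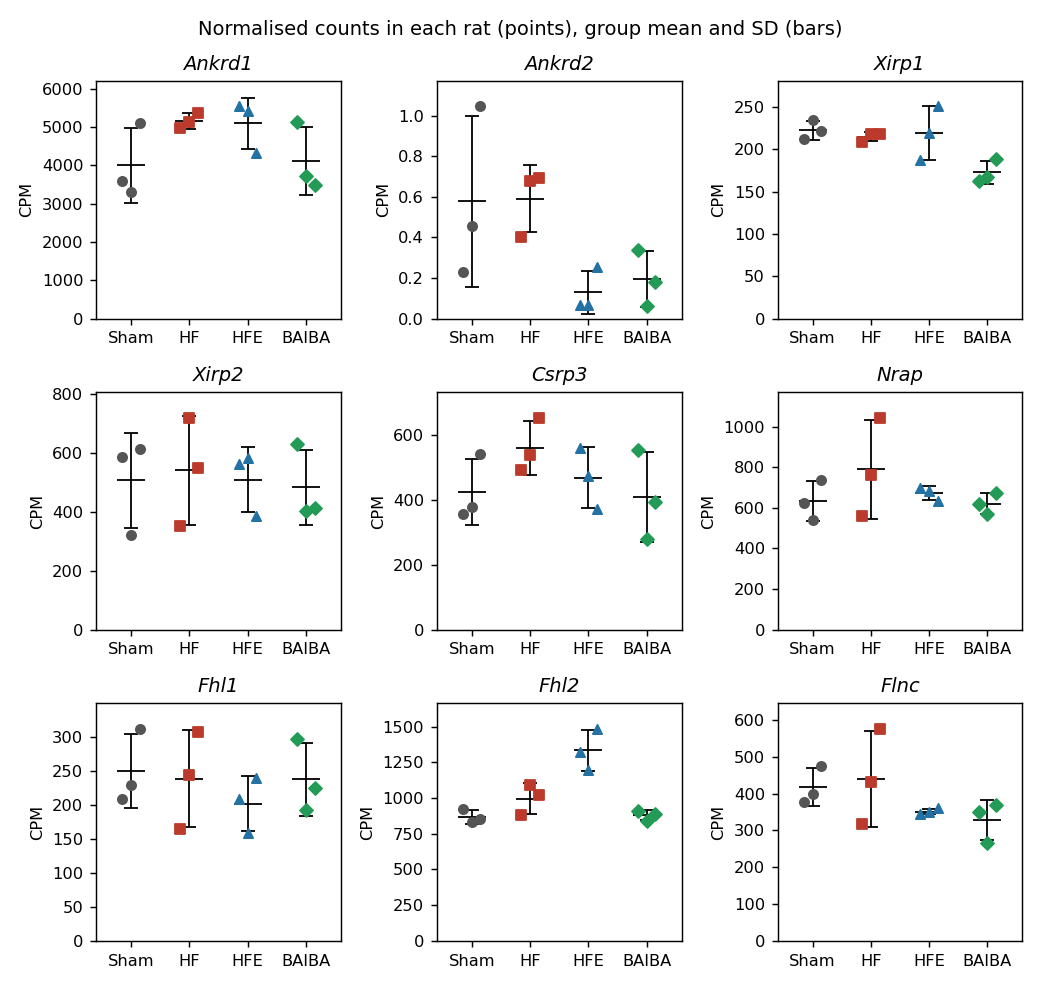
CPM of each gene in each rat (points, in replicate order within a group), with the group mean and SD as bars and the CPM axes starting at 0. Fhl2 is the gene whose 3 HFE rats, at 1196 to 1484 CPM, lie above all other rats, and Xirp1 has its lowest group mean in BAIBA.

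Fhl2, a LIM protein that holds metabolic enzymes to titin and is known to dampen calcineurin signalling, differed most clearly among the groups. Its levels were 925, 833 and 850 CPM in the Sham rats, 879, 1088 and 1022 CPM in the HF rats, 1322, 1196 and 1484 CPM in the HFE rats and 911, 841 and 891 CPM in the BAIBA rats. All 3 HFE rats lay above all 9 other rats, a pattern held by 1.51% of the 15617 genes tested, whereas the Sham, HF and BAIBA rats overlapped. HFE averaged 1334 ± 145 CPM (SD, n = 3), Sham 870 ± 49.0, HF 996 ± 107 and BAIBA 881 ± 35.7. In bulk tissue a higher level per cell and a larger share of expressing cells cannot be told apart.

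Markers of several cell types differed between HFE and other groups without passing edgeR's adjustment. At an unadjusted edgeR p under 0.05, 4 of 8 cardiomyocyte markers (Tnnt2, Tnni3, Actc1 and Myl2) were higher in HFE than in Sham and the same 4 were higher than in HF, with a median over the 8 of 0.09 and 0.20 on the log2 scale, while Myh6 was lower than in Sham. All 4 macrophage markers were lower in HFE than in Sham (median -0.64), and 3 of 4 were higher in BAIBA than in HFE (median 1.02). Of the 4 fibroblast markers, Pdgfra was lower in HFE than in Sham at the same limit (-0.62). Pdgfra and Dcn were higher in BAIBA than in HFE, by 0.64 and 0.33. Of the 7 scar markers, 3 were lower in HFE than in Sham and 1 was higher in BAIBA than in HFE. For the scar markers DESeq2 without a fold limit passed 1 in HFE against Sham. The endothelial genes Kdr and Tie1 were higher in HFE than in Sham, by 0.44 and 0.26, and lower in BAIBA than in HFE, by -0.50 and -0.42. DESeq2 without a fold limit passed Myh6 in HFE against Sham (adjusted p = 0.000136) and Actc1, Cd163 and Mrc1 in BAIBA against HFE. Their part in the level of Fhl2 was not tested.

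The edgeR fit put Fhl2 1.54-fold higher in HFE than in Sham, a log2 difference of 0.62 (SE 0.09, 95% interval 0.41 to 0.84), with an unadjusted p of 0.000131 and an adjusted p of 0.121. Against HF the HFE level was 1.34-fold higher, 0.42 on the log2 scale (SE 0.11, interval 0.16 to 0.69, edgeR unadjusted p = 0.00639, adjusted p = 0.627). BAIBA lay below HFE by a log2 difference of -0.60 (SE 0.10, interval -0.84 to -0.36, edgeR unadjusted p = 0.000393, adjusted p = 0.131). Fhl2 ranked 10 of 15617 genes in the test of any difference among the groups, with an adjusted p of 0.241 from edgeR. DESeq2 gave an adjusted p of 3.88e-05 for HFE against Sham, 0.000138 for BAIBA against HFE, 1.72e-06 across the 4 groups and 0.154 for HFE against HF. edgeR without a filter on low counts gave 0.00897 and 0.0434 for the first 2 of these pairs. The exact permutation test returned 0.1 for each of the 3 pairs with HFE, the smallest p that 3 against 3 rats allow.

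HF and Sham differed in Fhl2 by 0.19 (interval -0.06 to 0.44), BAIBA and HF by -0.18 (interval -0.44 to 0.09) and BAIBA and Sham by 0.02 (interval -0.19 to 0.24) on the log2 scale, none of which passed the test. Leaving out any single rat kept HFE against Sham between 0.54 and 0.69 and BAIBA against HFE between -0.67 and -0.52, with edgeR adjusted p-values of 0.106 or more. Without BAIBA rat 1, the rat with the highest scar markers, Fhl2 in BAIBA against HFE was at -0.62. Fhl2 also varied little within groups, with a pooled SD of 0.12 on the log2 scale against 0.24 for the median gene.

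RefSeq gives 2 starts for Fhl2 on the minus strand of chromosome 9 in GRCr8. The 250 bases before each are shown because Fhl2 is the gene with the clearest group difference, with CArG boxes, a MEF2 box and CATTCC, the letters bound by TEAD factors, in capitals. The window chr9:52954541-52954790 precedes the first start and chr9:52923327-52923576 the second.
Fhl2 start 1: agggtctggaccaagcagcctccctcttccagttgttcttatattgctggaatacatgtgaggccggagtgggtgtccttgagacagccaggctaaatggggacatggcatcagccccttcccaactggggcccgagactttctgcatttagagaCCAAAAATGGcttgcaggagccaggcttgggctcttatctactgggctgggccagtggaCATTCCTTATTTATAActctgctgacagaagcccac
Fhl2 start 2: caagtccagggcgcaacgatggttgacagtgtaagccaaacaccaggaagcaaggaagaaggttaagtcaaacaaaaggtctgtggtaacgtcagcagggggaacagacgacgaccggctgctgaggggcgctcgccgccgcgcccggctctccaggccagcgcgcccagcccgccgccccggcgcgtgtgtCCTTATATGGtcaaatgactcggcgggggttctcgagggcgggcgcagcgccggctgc
In the first window a CArG box lay 95 to 86 bases before the start, and CATTCC at 36 to 31 bases was followed directly by the MEF2 box at 30 to 21 bases. The second window had a CArG box at 58 to 49 bases. A CArG box on either strand occurred in 1.5% of 33465 RefSeq windows of this length, a MEF2 box in 2.96% and CATTCC in 12.1%. A match of letters is a description and not a binding site.

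Xirp1 encodes Xin, an actin-binding protein of the intercalated disc, and had its lowest levels under BAIBA. The rats had 212, 234 and 222 CPM in Sham, 209, 218 and 218 CPM in HF, 187, 220 and 251 CPM in HFE and 162, 167 and 188 CPM in BAIBA. Every BAIBA rat lay below every Sham and HF rat, and the highest BAIBA rat lay just above the lowest HFE rat. The BAIBA mean of 173 ± 13.9 CPM (SD, n = 3) compared with 223 ± 11.1 in Sham, 215 ± 5.11 in HF and 219 ± 31.6 in HFE.

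On the log2 scale Xirp1 differed by -0.36 (SE 0.10, interval -0.58 to -0.14) between BAIBA and Sham, by -0.32 (SE 0.10, interval -0.55 to -0.08) between BAIBA and HF and by -0.34 (SE 0.12, interval -0.63 to -0.06) between BAIBA and HFE. The unadjusted edgeR p-values were 0.00572, 0.0158 and 0.0247, and the adjusted ones 0.488, 0.851 and 0.433, so none of the 3 passed. Exact permutation p-values were 0.1, 0.1 and 0.2. HF differed from Sham by -0.05 (interval -0.23 to 0.13) and HFE from HF by 0.03 (interval -0.23 to 0.29). Without BAIBA rat 1 the 3 differences with BAIBA were -0.32, -0.26 and -0.30. The pooled SD within groups was 0.13.

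Xirp2, the larger Xin relative, gave the widest spread among the abundant members and no ordering of the groups. The values were 584, 320 and 614 CPM in Sham, 351, 718 and 549 CPM in HF, 561, 582 and 384 CPM in HFE and 628, 404 and 413 CPM in BAIBA. The 4 groups overlapped throughout. The pooled SD was 0.44 on the log2 scale, larger than that of 76.5% of genes. Fitted changes ran from -0.16 in BAIBA against HF (interval -0.83 to 0.51) to 0.09 in HF against Sham (interval -0.73 to 0.90), so a change of up to 1.87-fold in the latter was within the error.

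A MEF2 box lay before starts of both Xin genes, as it did before the first start of Fhl2. The motif was chosen after the sequences had been seen, and 2.96% of all windows held one. Another Xirp1 start had no such box in its window. The windows of 250 bases before the most upstream Xirp1 start (chr8:128635012-128635261, minus strand) and the Xirp2 start (chr3:72533936-72534185, plus strand), both GRCr8 from RefSeq, each held a single MEF2 box, given in capitals.
Xirp1 start 1: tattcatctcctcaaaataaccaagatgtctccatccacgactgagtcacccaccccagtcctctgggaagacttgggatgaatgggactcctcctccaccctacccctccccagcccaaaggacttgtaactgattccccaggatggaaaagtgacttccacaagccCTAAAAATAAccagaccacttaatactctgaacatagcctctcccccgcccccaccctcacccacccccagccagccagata
Xirp2: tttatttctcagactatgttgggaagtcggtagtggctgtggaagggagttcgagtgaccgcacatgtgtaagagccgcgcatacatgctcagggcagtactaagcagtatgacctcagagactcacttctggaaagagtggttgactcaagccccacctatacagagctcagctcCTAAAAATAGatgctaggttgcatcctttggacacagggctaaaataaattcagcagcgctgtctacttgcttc
The boxes lay 82 to 73 bases and 74 to 65 bases before the starts. For Fhl1, the window chrX:139638246-139638495 on the plus strand is shown because it held a CArG box like those of Fhl2, at 102 to 93 bases before the start.
Fhl1 start 1: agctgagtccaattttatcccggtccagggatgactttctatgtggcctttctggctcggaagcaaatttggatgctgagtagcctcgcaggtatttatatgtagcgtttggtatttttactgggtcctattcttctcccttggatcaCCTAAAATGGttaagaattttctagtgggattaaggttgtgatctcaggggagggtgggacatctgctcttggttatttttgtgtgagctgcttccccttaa
RefSeq windows were found for 6 of the 9 genes, with 10 starts in all (Ankrd1, Csrp3 and Nrap had none in the table). A MEF2 box was in 4 of the 10 windows (the box of Xirp1 lies in the windows of 2 starts that overlap), a CArG box in 3 and CATTCC in 2 (Fhl2 and Flnc). Of the other motifs searched on both strands, TATAAA was in 3 of 10 windows (12.9% of all windows), GGGCGG in 5 (30.5%), AGATAA in 2 (10.3%) and CANNTG in 7 (65.5%).

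Ankrd1, the cardiac ankyrin-repeat protein that binds titin and moves to the nucleus on stretch, averaged highest in HF and HFE. Its levels were 3589, 3293 and 5108 CPM in Sham, 4966, 5141 and 5367 CPM in HF, 5533, 5428 and 4319 CPM in HFE and 5137, 3733 and 3481 CPM in BAIBA. Sham rat 3 and BAIBA rat 1 reached the HF range, and all groups overlapped. HF was at 5158 ± 201 CPM (SD, n = 3) and Sham at 3997 ± 974, a log2 difference of 0.36 (SE 0.16, interval -0.02 to 0.75, edgeR adjusted p = 0.805). HFE differed from Sham by 0.35 (interval -0.11 to 0.82), BAIBA from HF by -0.32 (interval -0.70 to 0.05) and BAIBA from Sham by 0.05 (interval -0.45 to 0.54). BAIBA differed from HFE by -0.31 (SE 0.17, interval -0.70 to 0.08, edgeR unadjusted p = 0.107, adjusted p = 0.638), and by -0.32 (SE 0.10, unadjusted p = 0.0185, adjusted p = 0.290) with the replicate number as a block. Without Sham rat 3 or the other rats in turn, HF against Sham ranged from 0.24 to 0.59.

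Ankrd2 had 4, 7 and 16 reads in Sham, 7, 11 and 13 reads in HF, 1, 1 and 4 reads in HFE and 6, 1 and 3 reads in BAIBA. Summed, these were 27 reads in Sham, 31 in HF, 6 in HFE and 10 in BAIBA. The HFE rats and the BAIBA rats all lay below the HF rats, with an exact permutation p of 0.1 for each, and both overlapped with Sham. Ankrd2 passed the filter only in HF against Sham (log2 difference 0.04, interval -1.34 to 1.42) and over all 12 rats, where any difference among groups had an unadjusted p of 0.0359 and an adjusted p of 0.485 by edgeR. At a few reads per rat no fold is given for the separate groups.

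Csrp3 encodes muscle LIM protein, a Z-disc adaptor whose loss causes dilated cardiomyopathy in mice. It measured 354, 377 and 539 CPM in Sham, 490, 537 and 652 CPM in HF, 558, 474 and 370 CPM in HFE and 553, 278 and 392 CPM in BAIBA. The HF rats were high, with only Sham rat 3 among them from the Sham group, and BAIBA rat 1 was again the highest of its group. HF differed from Sham by 0.40 on the log2 scale (SE 0.18, interval -0.03 to 0.83, edgeR adjusted p = 0.805) and BAIBA from HF by -0.46 (SE 0.25, interval -1.03 to 0.12, adjusted p = 0.851). HFE differed from HF by -0.26 (interval -0.65 to 0.14). None passed. Leaving out 1 rat moved HF against Sham to between 0.28 (without HF rat 3) and 0.62 (without Sham rat 3).

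Nrap, whose product organises new myofibrils and anchors them at the intercalated disc, followed a like order of group means. Its levels were 623, 538 and 737 CPM in Sham, 561, 762 and 1044 CPM in HF, 698, 685 and 634 CPM in HFE and 617, 571 and 672 CPM in BAIBA. HF rat 3 stood above all others, and the HF group as a whole overlapped with each other group. The HF and Sham means of 789 ± 242 and 633 ± 99.6 CPM (SD, n = 3) differed by 0.31 on the log2 scale (SE 0.23, interval -0.24 to 0.86, edgeR adjusted p = 0.848). Without each rat in turn this ranged from 0.06 to 0.51.

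Fhl1, a LIM protein linked to stretch signalling from titin and mutated in inherited myopathies, did not separate the groups. The rats had 209, 229 and 312 CPM in Sham, 165, 244 and 307 CPM in HF, 209, 158 and 240 CPM in HFE and 297, 192 and 225 CPM in BAIBA. The lowest group mean was that of HFE (202 ± 41.1 CPM, SD, n = 3), the group in which Fhl2 was highest, but the rats of all groups overlapped. HFE differed from Sham by -0.30 (SE 0.21, interval -0.80 to 0.20, edgeR adjusted p = 0.628) and from HF by -0.24 (interval -0.82 to 0.35) on the log2 scale.

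Flnc, the muscle filamin that is cleared by chaperones after unfolding under load, was lower in the treated groups than in Sham without passing the test. It measured 376, 399 and 475 CPM in Sham, 316, 430 and 576 CPM in HF, 345, 349 and 360 CPM in HFE and 350, 265 and 369 CPM in BAIBA. Every HFE rat and every BAIBA rat lay below every Sham rat, while the HF rats spread from below the lowest to above the highest Sham rat. The log2 differences from Sham were -0.24 in HFE (SE 0.10, interval -0.46 to -0.02, edgeR unadjusted p = 0.0355, adjusted p = 0.404) and -0.34 in BAIBA (SE 0.15, interval -0.68 to 0.00, unadjusted p = 0.0518, adjusted p = 0.678). The HFE rats spanned only 345 to 360 CPM, a coefficient of variation of 2.17%, against 29.6% in HF.

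**Figure D3:**
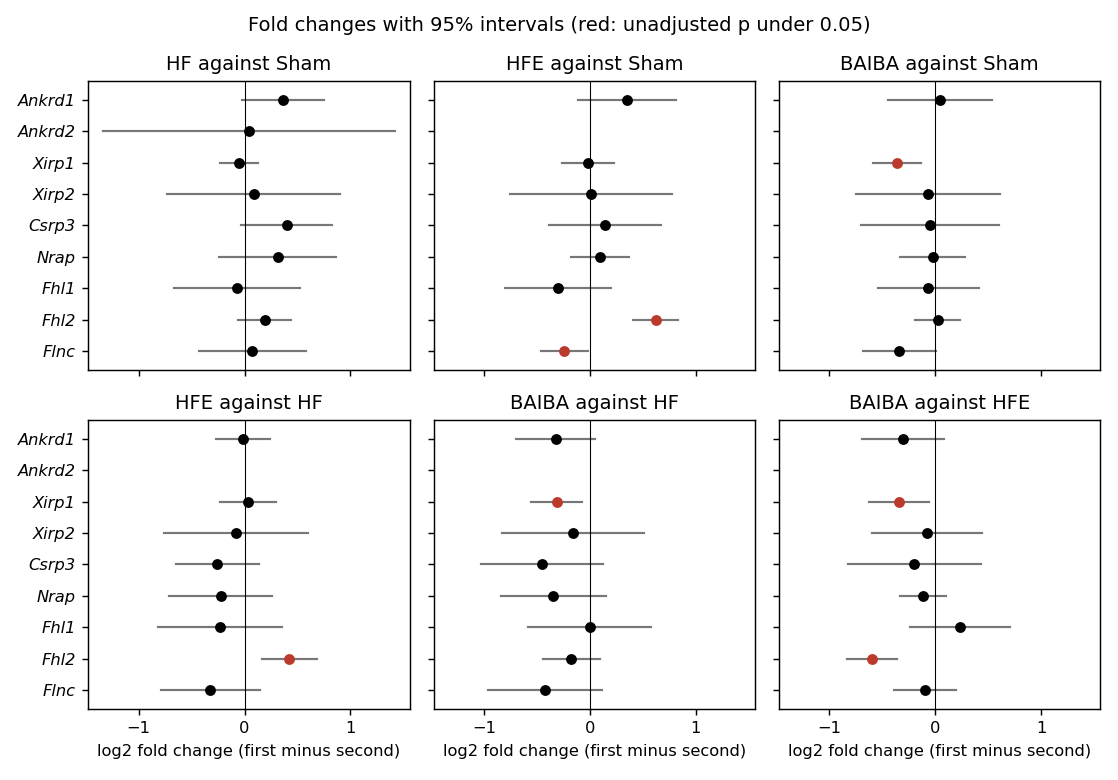
Log2 fold change of each gene (points) with its 95% interval (lines) in the 6 pairs of groups, from edgeR, where red points have an unadjusted p under 0.05 and a missing row was below the filter. Fhl2 is off 0 in the 3 pairs with HFE (0.62, 0.42 and -0.60) and Xirp1 in the 3 pairs with BAIBA (-0.36, -0.32 and -0.34).

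Read as a list, the members leaned differently in each comparison. The median log2 change was 0.09 in HF against Sham (all genes 0.01), with 7 of 9 above 0. It was -0.32 in BAIBA against HF (all genes -0.01), with 8 of 8 below 0, from just under 0 (Fhl1) to -0.46 (Csrp3). In BAIBA against HFE the median was -0.16 (all genes 0.00), with 7 of 8 below 0, and in HFE against HF it was -0.15 (all genes -0.01), with 6 of 8 below 0. HFE against Sham (0.05) and BAIBA against Sham (-0.06) lay near 0. Members were correlated from rat to rat and are not independent of each other, so these counts describe the list only.

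Of the 8 cardiomyocyte markers, Myh6 and Pln were lower in every HF rat than in every Sham rat, and the other 6 overlapped. Relative to the mean log2 level of these 8 markers, Ankrd1, Csrp3 and Fhl2 were higher in every HF rat than in every Sham rat (by 0.52, 0.55 and 0.32 on the log2 scale), and 16.2% of all genes tested were higher without overlap on this scale. Fhl2 in HFE was 0.64 above Sham without overlap (8.71% of all genes), 0.32 above HF with overlap, and BAIBA differed from HFE by -0.51 without overlap (4.12%). Xirp1 was lower without overlap in BAIBA on this scale, by -0.25 against Sham (2.22% of all genes), -0.33 against HF (6.71%) and -0.25 against HFE (4.12%). The last of these separations was absent in CPM, where Xirp1 overlapped between BAIBA and HFE. Flnc, in contrast, lost its separation from Sham on this scale, with overlap in HFE (-0.21) and in BAIBA (-0.24). This scale was chosen after the data had been seen.

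Within groups, the strain sensors tended to move together from rat to rat. After the group means were removed, r was above 0 in 32 of 36 pairs of genes over the 12 rats, with a median of 0.42 and a range from -0.54 to 0.89. For single members, the median r with all 15617 genes was between -0.01 and 0.01, and the median absolute r between 0.26 and 0.31. Between 8.47% and 13.8% of all genes had an r of at least 0.5 with a given member. The share of all pairs of genes with a permutation p under 0.05 was not counted. Under exact permutation of rats within groups (1296 arrangements), 8 of 36 pairs had a p under 0.05 and 0 of 36 passed the Benjamini-Hochberg adjustment over the 36 pairs, by Pearson's r or by Spearman's rho. All members share library, depth and dissection in a rat, and their part in the correlations was not tested.

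The tightest pair was Nrap with Flnc, with an r of 0.89 (p = 0.0255 by exact permutation, 0.131 adjusted) and rho = 0.83 (p = 0.0231, adjusted p = 0.135). Without the 2 rats farthest from the median of Nrap, r was 0.66 (exact permutation p = 0.153). Ankrd1 with Csrp3 gave an r of 0.83 (p = 0.0208 by exact permutation, 0.131 adjusted) and rho = 0.80 (p = 0.0262, adjusted p = 0.135), and r = 0.66 without the 2 farthest rats. Fhl1 with Flnc gave an r of 0.82 (p = 0.0177 by exact permutation, 0.131 adjusted) and rho = 0.84 (p = 0.0108, adjusted p = 0.111), and r = 0.68 without the 2 farthest rats. Ankrd1 with Xirp2 gave an r of 0.71 (p = 0.00772 by exact permutation, 0.0926 adjusted) and rho = 0.69 (p = 0.0231, adjusted p = 0.135), and r = 0.64 without the 2 farthest rats. The highest r with a single read-poor gene was that of Ankrd2 with Fhl1 (0.83), in which Ankrd2 rests on 1 to 16 reads. Fhl1 and Fhl2 had an r of 0.63 (p = 0.0980 by exact permutation, 0.271 adjusted) and a rho of 0.64 (p = 0.0818, adjusted p = 0.269), with r = 0.50 without the 2 farthest rats. Xirp1 stood apart, with r of -0.54 with Ankrd1, -0.43 with Xirp2 and -0.37 with Csrp3, and Fhl2 and Csrp3 were nearly unrelated (r = 0.03).

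**Figure D4:**
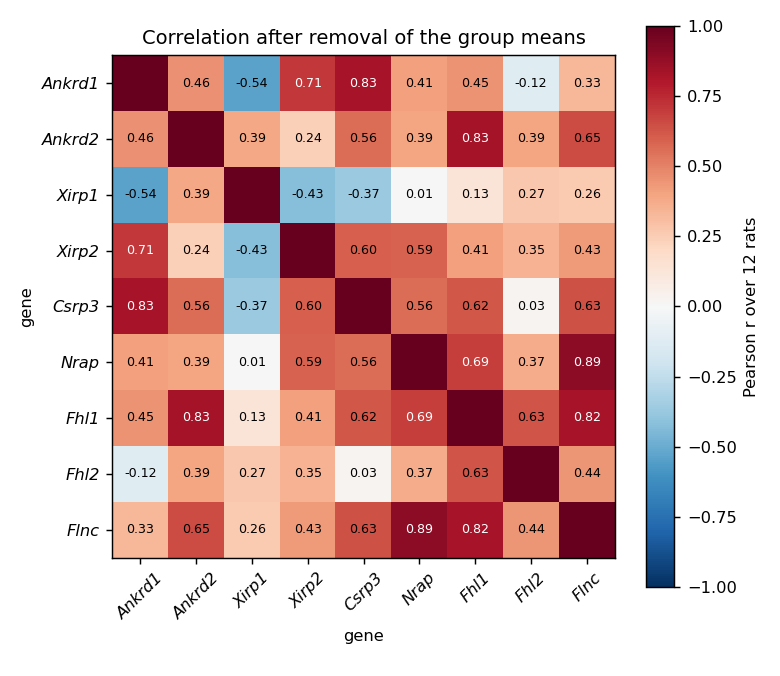
Pearson r between the genes over the 12 rats after removal of the group means, on a colour scale from -1 to 1. Nrap with Flnc (0.89), Ankrd1 with Csrp3 (0.83) and Fhl1 with Flnc (0.82) are deep red, and Xirp1 with Ankrd1 (-0.54) is the lowest.

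Genes that the strain sensors work with were examined as lists. Of 16 measured Z-disc core genes (α-actinin and its neighbours, with telethonin not among them), edgeR called 0 in every comparison. At an unadjusted p under 0.05, 4 of 16 were lower in BAIBA against Sham, and 3 of 16 were lower and 1 higher both in HFE against Sham and in BAIBA against HFE. DESeq2, with no limit on the fold change, passed Nexn in HFE against Sham and Pdlim1 in BAIBA against HFE. Pdlim1, a PDZ and LIM adaptor of α-actinin, averaged 50.7 ± 9.63 CPM in BAIBA (SD, n = 3) against 77.2 ± 10.4 in HFE, a log2 difference of -0.61 (SE 0.16, edgeR adjusted p = 0.239, DESeq2 adjusted p = 0.0349). Synpo2l, an actin-binding Z-disc protein, was at 68.5 ± 7.83 CPM in BAIBA against 95.2 ± 7.43 in Sham (log2 difference -0.47, SE 0.11, edgeR adjusted p = 0.404). Nexn, an actin-binding protein of the Z-disc, was at 716 ± 42.4 CPM in HFE against 561 ± 27.1 in Sham (log2 difference 0.36, SE 0.07, edgeR adjusted p = 0.198, DESeq2 adjusted p = 0.0178). The list's median change was between -0.11 and -0.03 in the 6 pairs of groups, against -0.01 to 0.01 for all genes.

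Among 8 tested partner genes of titin, 0 were called by edgeR in any comparison. Titin itself was not among the genes tested. DESeq2 with no fold limit passed 1 of the 8 in HFE against Sham and 2 in BAIBA against HFE. In the latter pair 4 of 8 were lower at an unadjusted p under 0.05. The list's median there was -0.28. Trim54, a ubiquitin ligase of the MuRF family, measured 261, 284 and 263 CPM in HFE, 249, 256 and 265 CPM in HF, 215, 222 and 213 CPM in Sham and 210, 199 and 224 CPM in BAIBA. All HF and HFE rats lay above all Sham and BAIBA rats, and the share of all genes that do so was not counted. HFE exceeded Sham by 0.32 on the log2 scale (SE 0.07, edgeR adjusted p = 0.198, DESeq2 adjusted p = 0.0335) and BAIBA differed from HFE by -0.35 (SE 0.09, edgeR adjusted p = 0.237, DESeq2 adjusted p = 0.0431). Myom2, a crosslinker of the M-band, differed between BAIBA and HFE by -0.79 (SE 0.21, edgeR adjusted p = 0.267, DESeq2 adjusted p = 0.0094), and Trim55 by -0.40 (SE 0.11, edgeR adjusted p = 0.267, DESeq2 adjusted p = 0.0952).

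The 11 adherens junction partners of Xin and N-RAP and the 10 filamins and filamin chaperones had 0 calls in any comparison by edgeR, and DESeq2 with no fold limit passed 0 of the former and 1 of the latter, in BAIBA against HFE. At an unadjusted p under 0.05, 4 of 11 junction genes were lower in BAIBA against Sham and 3 of 11 lower in BAIBA against HFE. N-cadherin (Cdh2), which Xin proteins reach through β-catenin, was at 250 ± 20.5 CPM in BAIBA against 319 ± 20.7 in HFE (SD, n = 3), a log2 difference of -0.35 (SE 0.10, edgeR adjusted p = 0.268). Talin (Tln1) was at 272 ± 22.7 CPM in HF against 226 ± 19.8 in Sham (log2 difference 0.27, edgeR adjusted p = 0.805), and Vasp at 43.1 ± 7.75 CPM in HFE against 33.8 ± 1.49 in Sham (0.36, adjusted p = 0.365). Of the filamin chaperones, Hspb1 differed by -0.53 between BAIBA and HFE (SE 0.11, edgeR adjusted p = 0.174, DESeq2 adjusted p = 0.00863), Cryab by -0.31 (SE 0.09, edgeR adjusted p = 0.291) and Fblim1, a filamin-binding LIM protein, by -0.38 (SE 0.10, edgeR adjusted p = 0.250).

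The other LIM genes, 6 of them tested, had 0 at an adjusted p under 0.05 in any comparison, with edgeR or DESeq2 and no fold limit. Fhl3, a relative of Fhl2, measured 21.9, 21.1 and 27.8 CPM in HFE, 17.8, 17.2 and 13.6 CPM in Sham, 17.4, 16.9 and 11.6 CPM in HF and 16.8, 17.5 and 15.95 CPM in BAIBA. As for Fhl2, all HFE rats lay above all other rats. HFE exceeded Sham by 0.55 on the log2 scale (SE 0.15, edgeR unadjusted p = 0.00583, adjusted p = 0.296) and HF by 0.63 (SE 0.19, unadjusted p = 0.012, adjusted p = 0.627). Pdlim7 differed by -0.39 between BAIBA and HFE (SE 0.13, edgeR adjusted p = 0.362), and Csrp1, the smooth muscle relative of Csrp3, did not differ among the groups beyond its spread (edgeR adjusted p = 0.746 across the 4 groups).

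Genes known to answer stretch and hypertrophy gave the only edgeR calls in the lists. Myh7, the slow β-myosin heavy chain, measured 7474, 7755 and 7935 CPM in Sham, 11746, 8626 and 17555 CPM in HF, 13936, 16625 and 12794 CPM in HFE and 3114, 3591 and 3546 CPM in BAIBA. It fell by 1.17 on the log2 scale in BAIBA against Sham (SE 0.10, edgeR adjusted p = 0.00863) and was lower in BAIBA than in HFE by a log2 difference of -2.08 (SE 0.13, edgeR adjusted p = 0.00237). Between BAIBA and HF it differed by -1.89 (SE 0.25, edgeR adjusted p = 0.334, DESeq2 adjusted p = 4.46e-12). Against Sham it was higher by 0.71 in HF (SE 0.24, edgeR adjusted p = 0.805) and by 0.91 in HFE (SE 0.10, edgeR adjusted p = 0.0839, DESeq2 adjusted p = 4.76e-11). Nppb, which encodes brain natriuretic peptide, was at 132, 46.6 and 109 CPM in Sham, 205, 302 and 189 CPM in HF, 196, 202 and 338 CPM in HFE and 109, 36.1 and 83.0 CPM in BAIBA. All HF and HFE rats lay above all Sham and BAIBA rats, again a separation whose share among all genes was not counted. The edgeR adjusted p-values were 0.302 to 0.851 in the 4 pairs of HF or HFE with Sham or BAIBA. Rcan1, a calcineurin target, averaged 319 CPM in both HF and HFE against 146 in Sham and 145 in BAIBA (edgeR adjusted p = 0.263 and DESeq2 adjusted p = 2.05e-05 for HFE against Sham, 0.292 and 0.00183 for BAIBA against HFE). The list's median was 0.84 in HF against Sham, 0.57 in HFE against Sham, -0.40 in BAIBA against Sham, 0.11 in HFE against HF, -1.10 in BAIBA against HF and -1.14 in BAIBA against HFE, with 3 of 8 genes lower in BAIBA against HF at an unadjusted p under 0.05. The atrial gene Nppa, also in this list, spread widely within groups, with means of 174 ± 182 CPM in Sham, 345 ± 242 in HF, 101 ± 64.8 in HFE and 78.4 ± 117 in BAIBA (SD, n = 3). Not every gene of the list followed Myh7, Nppb and Rcan1. Tnc averaged 2.83 CPM in Sham, 1.63 in HF, 0.399 in HFE and 2.01 in BAIBA. In the same order Acta1 averaged 597, 566, 618 and 322.5 CPM, and Ccn2 60.2, 62.0, 70.8 and 67.5 CPM. Ccn1 averaged 23.1, 51.2, 143 and 24.6 CPM, with an SD of 181 in HFE. At an unadjusted edgeR p under 0.05, 1 of 8 genes was lower and 3 of 8 were higher in HFE against Sham.

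The gene most like each member over the 12 rats was picked from 12850 named genes with a mean of at least 1 CPM, by Pearson's r of log2 CPM. These were RF00492 for Ankrd1 (r = 0.89), Ube2l3 for Ankrd2 (0.93), Kdm5c for Xirp1 (0.91), Gpr161 for Xirp2 (0.91), Sypl2 for Csrp3 (0.91), Cdkn1a for Nrap (0.92), Egln1 for Fhl1 (0.92), Slc35f5 for Fhl2 (0.89) and Thbs2 for Flnc (0.96). Each is the highest of 12850 values and carries no test. None of the 9 was another member, since members were left out of the search.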

How the data were processed

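RNA from 12 rat left ventricles (Sham, HF, HFE and BAIBA, 3 each, grouped by the sample labels) was sequenced from oligo(dT)-bound mRNA as paired-end libraries. The authors trimmed the reads, used HISAT2 for alignment and StringTie to find unannotated genes, and took reads per gene from featureCounts. Raw whole-number counts were deposited, and the deposited FPKM values were made by the authors from these counts and the gene lengths. Tool versions, the annotation and the use of strand in counting are not given in the sources used here, so reads of a gene and of an antisense partner cannot be told apart. The submitters' processing notes list a mouse build whereas the gene identifiers are those of rat, so no gene coordinates of the count table are printed. Groups follow the labels, although the design text lists 1 fewer.

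The analysis of counts ran under R 4.3.3 in edgeR 4.0.16 (TMM, filterByExpr, robust quasi-likelihood F-test, Benjamini-Hochberg adjustment over all genes tested), fitting the 2 groups compared. A pair of contrasts used all 12 rats. A gene was called at an adjusted p below 0.05 if its fold change, up or down, also exceeded 1 on the log2 scale. SE is the fold change over the square root of F, and 95% intervals use the t distribution with the fit's degrees of freedom. For each member, log2(CPM + 0.1) was further compared between groups with exact permutation, two-sided. For correlations the prior count of log2 CPM was 2 (Python 3.11.15, scipy 1.17.1). The script was tested on simulated data. Depth limits mainly Ankrd2, with 1 to 16 reads. Alternatives were DESeq2 1.42.0, RLE or library-size scaling, no filter, 1 fit over the 12 rats together, blocking on replicate number, limma 3.58.1 on log-transformed FPKM above a mean of 0.1 (pseudocount 1, or 0.1 instead), and each rat left out in turn. The libraries are numbered by the labels and each was taken as 1 rat, so p-values measure the spread between these libraries.

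Sample labels give the replicate numbers and do not say that equal numbers pair rats. Deviations of same-numbered rats from their group means correlated by 0.138 to 0.261 in BAIBA against HFE, above the limit of 0.1 for pairing, and by -0.0835 to 0.150 in the other 5 pairs of groups, where not every pair of rats passed it. The main fit has no block in any comparison, and exact tests are unpaired. The 9 genes, the gene lists and the tests were chosen with earlier results of these data known. All 9 genes are named in each comparison, and of each list up to 3 genes that were called or had the lowest unadjusted p across the 4 groups. In the stretch and hypertrophy list all 8 genes are named. Fhl1, Fhl2, Xirp1 and Xirp2 sequences are RefSeq windows of GRCr8, matched by symbol, and CArG and MEF2 boxes are their usual consensus letters on either strand. The motifs were chosen after the sequences had been seen.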

Additional observations from a re-analysis of the deposited data

How the results depend on the processing

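No call reversed its direction under any alternative run. The number of strain sensors called at the fold limit was 0 in all 6 pairs of groups and in the ligated groups against Sham under every alternative run. With no limit on the fold change, DESeq2 and edgeR without a filter each called 1 (Fhl2) in HFE against Sham and 1 (Fhl2) in BAIBA against HFE, and DESeq2 called 1 (Fhl2) across the 4 groups. The cause of this difference between tools was not tested. With each rat left out in turn, these counts were 0 for all 6 pairs of groups. The replicate number as a block called 0 members in every comparison. In BAIBA against HFE, where deviations of same-numbered rats correlated, this edgeR fit gave Fhl2 an adjusted p of 0.0551, Xirp1 0.198 and Ankrd1 0.290. It changed no call.

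The count of correlated pairs that passed the adjustment was 0 of 36 in most settings and ranged from 0 to 2 when each rat was left out. The 2 pairs appeared without BAIBA rat 3 (Ankrd1 with Nrap, r = 0.54, and Ankrd2 with Flnc, r = 0.67, both with an exact permutation adjusted p of 0.0417). These omissions were chosen after the data were seen, as were the settings with no fold limit and the scale relative to cardiomyocyte markers, on which Fhl2 in HF against Sham was 0.32 in place of 0.19. Ankrd2 across the ligated groups moved from -1.17 with edgeR to -0.20 with limma on log2(FPKM + 1), where a pseudocount of 1 exceeds its levels. With 3 rats per group, spreads such as that of Xirp2 give wide intervals, whose upper end in HF against Sham was 1.87-fold. That value is not a limit of detection, and larger changes may also go undetected. The smallest change that the adjusted test would find was not determined.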
